A study of Mus musculus with 23 samples.

Results

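The genes described here are 10 that mark pericytes, namely Rgs5, Higd1b, Ndufa4l2, Kcnj8, Abcc9, Vtn, Pdgfrb, Notch3, Cspg4 and Anpep. They were picked by gene symbol from 29894 genes measured in at least 1 of 3 tissues of C57BL/6 mice. All 10 were in the tables of hypothalamus, white fat from under the skin and the tibialis anterior (a shin muscle), and all 10 had enough reads to be tested in each tissue. The list was drawn up with earlier results of the oxaliplatin comparisons known, so the oxaliplatin values below, their adjusted p-values included, are a description of these libraries and not an independent test of the list. The rule for the list names oxaliplatin against vehicle within each tissue and does not name hypothalamus against fat in vehicle mice. That comparison is given with its test. Earlier results of these data were known when the genes were chosen, so its p-values may not be independent of the choice.

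Bulk RNA was sequenced from 23 libraries collected after 8 weeks of treatment. Mice received 10 mg/kg oxaliplatin, a platinum compound used in chemotherapy, or vehicle, and no genetic change is named for any group. Hypothalamus had 4 oxaliplatin and 3 vehicle libraries, fat had 4 and 3, and muscle had 5 and 4. Libraries held 23.6 to 26.4 M counts (M, 1000000) in oxaliplatin hypothalamus and 27.3 to 28.5 M in vehicle hypothalamus, so every oxaliplatin library there was shallower. The ranges were 16.5 to 18 M in oxaliplatin fat, 16.9 to 22.7 M in vehicle fat, 22.4 to 32.2 M in oxaliplatin muscle and 27.3 to 31.2 M in vehicle muscle. Libraries are called here by the number in their titles. The labels do not say whether a number shared between tissues marks the same animal, and they give neither sex nor age. Muscle was sequenced with the Clontech SMARTer kit and the other tissues with a RiboErase kit. For levels or oxaliplatin effects in muscle against another tissue, the kit and the tissue therefore cannot be told apart.

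Some libraries stood apart before any comparison. Vehicle fat library 4 carried muscle fibre RNA: its 6 muscle fibre genes summed to 121000 normalised counts per 1000000 counts of the library (CPM), against 14.4 and 1290 CPM in the other vehicle fat libraries and 364 to 3010 CPM in oxaliplatin fat. Oxaliplatin fat library 5 had 11600 CPM over 9 fibroblast markers, against 716 to 1250 CPM in the other oxaliplatin fat libraries and 6380 to 8660 CPM in vehicle fat. Oxaliplatin hypothalamus library 2 had 847 CPM over 5 oligodendrocyte markers, against 1450 to 1610 CPM in the other oxaliplatin libraries and 1330 to 1500 CPM in vehicle. The muscle library titled as oxaliplatin library 5 carries a vehicle entry in its treatment field. It was kept with oxaliplatin, as in its title, and its values are given where they matter.

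Pericytes are contractile cells wrapped around capillaries inside the basement membrane that they share with endothelial cells. Endothelial PDGF-B recruits them through the receptor PDGFRB, and Notch signals from endothelium keep their identity through NOTCH3. In the brain they cover capillaries densely and help to form the blood-brain barrier, and in muscle and fat they line a leakier capillary bed. None of the 10 genes is exclusive to pericytes: smooth muscle cells of arterioles share Rgs5, Notch3 and Pdgfrb, fibroblasts share Pdgfrb and Anpep, oligodendrocyte precursors share Cspg4, and striated muscle fibres express Abcc9. In bulk tissue, fewer cells of a type and less RNA per cell cannot be told apart.

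The genes with the clearest oxaliplatin values in the hypothalamus were Kcnj8 and Abcc9, which make the pore and the regulatory subunit of the vascular ATP-sensitive potassium channel. Kcnj8 (ENSMUSG00000030247) lies at chr6:142564837-142571614 and Abcc9 (ENSMUSG00000030249) at chr6:142587862-142702315 on GRCm38, both on the minus strand and 16.2 kb apart. Because these neighbours are the pair that passed the test together, the RefSeq promoter windows of both are shown, each 300 bases long on the minus strand of GRCm38.p6 and holding the annotated transcription start. The Kcnj8 window is chr6:142571565-142571864 and the Abcc9 window chr6:142702225-142702524. Capitals mark TGGGAA, the core bound by RBPJ, the DNA-binding partner of Notch.
Kcnj8: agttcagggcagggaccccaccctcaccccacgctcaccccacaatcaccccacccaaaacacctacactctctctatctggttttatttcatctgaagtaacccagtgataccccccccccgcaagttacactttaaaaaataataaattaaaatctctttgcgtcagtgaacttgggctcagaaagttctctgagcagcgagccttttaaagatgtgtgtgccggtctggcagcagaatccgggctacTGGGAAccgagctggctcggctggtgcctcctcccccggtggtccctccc
Abcc9: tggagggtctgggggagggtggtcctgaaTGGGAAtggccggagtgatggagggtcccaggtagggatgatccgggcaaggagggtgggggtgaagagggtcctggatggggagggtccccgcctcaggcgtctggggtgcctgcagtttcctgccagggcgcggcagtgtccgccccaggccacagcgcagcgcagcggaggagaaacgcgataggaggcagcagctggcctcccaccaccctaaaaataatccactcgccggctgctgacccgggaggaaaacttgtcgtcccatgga
TGGGAA, read on both strands, was present once in each of these windows. It began at the RefSeq start of Kcnj8 and 221 bases before the RefSeq start of Abcc9. That start of Abcc9 lies inside the Abcc9 span given above and not at its end, so the 221 bases are not counted from the end of the span. A promoter window was searched for 7 of the 10 genes. Of those 7, 3 (Vtn, Kcnj8 and Abcc9) held TGGGAA, against 25.6% of 32817 mouse promoter windows. Higd1b, Ndufa4l2 and Pdgfrb were not searched, so the motif counts here do not cover them. ACGTG, the core of the hypoxia response element, was in 1 of the 7 (Notch3), against 19.6% of all windows. The palindromic glucocorticoid response element was in 0 of the 7 and in 0.0488% of all windows. TGGGAA contains GGGAA, the core of Ikaros motifs, and overlaps neither of the other searched motifs in the windows shown. A match describes letters only.

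In vehicle mice, 9 of the 10 genes were lower in hypothalamus than in fat and Vtn was higher. Normalised CPM per kb of exon, a level that allows genes to be compared, placed Vtn first in vehicle hypothalamus at 37.5 ± 7.25 (SD, n = 3), followed by Rgs5 at 16.9 ± 0.643. Vtn (chr11:78499091-78502324) encodes vitronectin, a secreted adhesion protein of plasma and matrix, and Rgs5 (chr1:169655501-169695813) a regulator that shortens G protein signals. Notch3 (chr17:32120820-32166852) at 6.97 ± 0.0839, Pdgfrb at 6.04 ± 0.582 and Cspg4 at 3.51 ± 0.490 CPM per kb came next, and the library ranges of neighbours in the order did not overlap down to Cspg4. Ndufa4l2, Anpep, Abcc9 and Kcnj8 followed at 2.11, 1.76, 1.37 and 1.28 CPM per kb, with overlapping ranges between neighbours. Higd1b was last at 0.807 ± 0.243 CPM per kb and rested on 14 to 69 reads per hypothalamus library over both treatments. The order depends on the gene length used. Per kb of the longest transcript, Pdgfrb at 5.54 to 6.72 and Cspg4 at 4.42 to 5.87 CPM per kb overlapped in vehicle hypothalamus.

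In vehicle fat the order was different. Rgs5 led at 75.6 ± 19.9 CPM per kb (SD, n = 3), apart from Notch3 at 27.3 ± 2.20. Notch3, Pdgfrb, Cspg4, Anpep and Abcc9 then ran down to 16.5 CPM per kb with overlapping ranges between neighbours. Kcnj8, Ndufa4l2 and Vtn were at 10.5, 9.27 and 6.64 CPM per kb, and Higd1b was again last at 3.20 ± 1.36. Per kb of the longest transcript, Cspg4 was at 26.1 to 38.4 CPM per kb in vehicle fat, against 25.3 to 29.8 for Notch3. Vehicle muscle also had Rgs5 first, at 28.7 ± 6.54 CPM per kb (SD, n = 4), followed by Ndufa4l2 at 16.7 ± 4.2. Abcc9, Vtn, Kcnj8 and Pdgfrb were at 13.2, 12.6, 10.2 and 6.52 CPM per kb there, and Notch3 and Cspg4 were at 0.952 and 0.675.

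**Figure D1:**
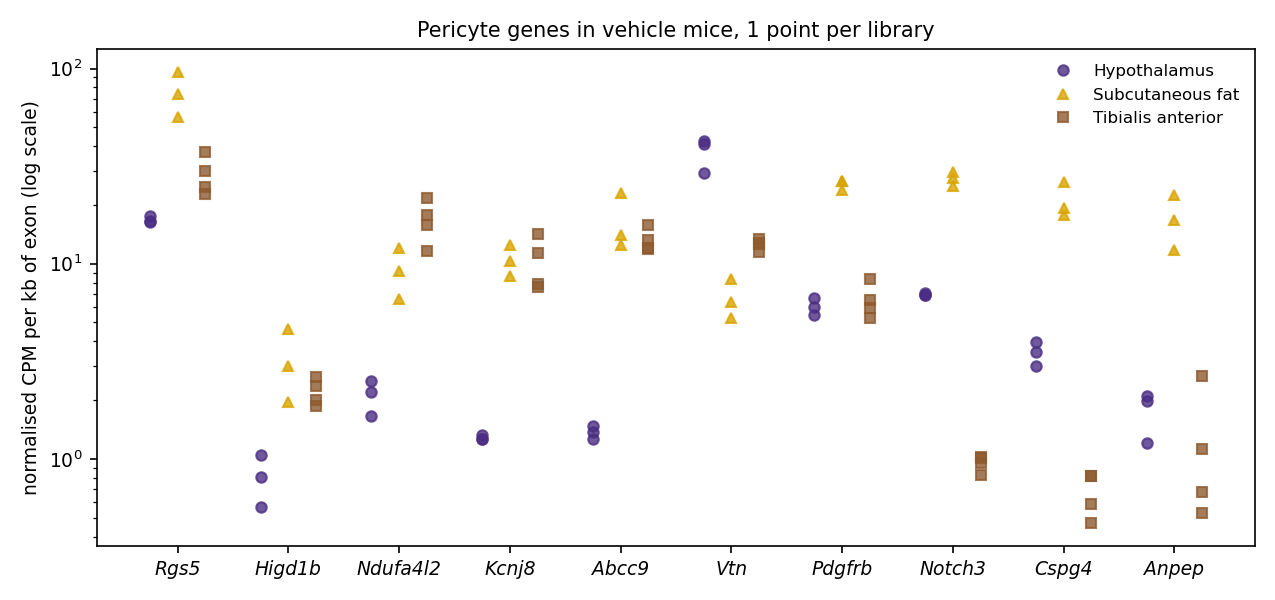
Normalised CPM per kb of exon (log scale) of the 10 pericyte genes in vehicle mice, 1 point per library, for hypothalamus (3 libraries), fat (3) and muscle (4). Vtn is the gene whose hypothalamus points lie above its fat points, and Higd1b is lowest in hypothalamus and in fat.

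Hypothalamus was tested against fat within the RiboErase libraries of vehicle mice. Of 19564 genes, 71.7% passed the edgeR quasi-likelihood test at an adjusted p under 0.05, with 34.2% higher and 37.5% lower in hypothalamus, so passing is common in this comparison. All 10 pericyte genes passed, 1 higher and 9 lower, and their median log2 ratio of hypothalamus over fat was -1.95, against -0.07 over all genes tested. The groups of libraries did not overlap for any of the 10. The share of all genes with groups apart was not counted for this comparison, so this does not set the 10 apart from other genes. Vtn averaged 78.3 ± 15.5 CPM in vehicle hypothalamus and 12.2 ± 3.17 CPM in vehicle fat (SD, n = 3 each), a log2 ratio of 2.68 ± 0.23 (SE, adjusted p = 3.58e-05).

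The furthest below fat were the channel genes and Anpep. Abcc9 averaged 11.8 ± 0.987 CPM in vehicle hypothalamus and 125 ± 46.9 CPM in vehicle fat (log2 ratio -3.41 ± 0.27, edgeR adjusted p = 2.75e-05). Fat library 4, which carried the muscle fibre RNA, had the highest Abcc9 value of the fat libraries, and without it the log2 ratio was -3.04 ± 0.11. Anpep (chr7:79821803-79861059), aminopeptidase N, gave -3.09 ± 0.32, and Kcnj8 gave -2.83 ± 0.15. Cspg4 (chr9:56865033-56899870), the NG2 proteoglycan, gave -2.39 ± 0.18. The log2 ratios of Rgs5, Ndufa4l2, Pdgfrb, Higd1b and Notch3 lay between -1.97 and -1.78, and the weakest adjusted p of the 10 was that of Higd1b at 0.00480.

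Other vessel genes were lower in hypothalamus as well. Of 14 endothelial markers, 13 were lower and none higher in vehicle hypothalamus than in vehicle fat, with a median log2 ratio of -2.45. Their summed level was 281 to 298 CPM in vehicle hypothalamus and 1340 to 1890 CPM in vehicle fat. Set against it, the summed level of the 10 pericyte genes was 0.993 to 1.11 times the endothelial sum in vehicle hypothalamus and 0.709 to 0.828 times in vehicle fat. These ranges do not overlap, but they do without Vtn, at 0.783 to 0.816 times in vehicle hypothalamus and 0.704 to 0.818 times in vehicle fat, a setting chosen after seeing the data. Some relatives of the pericyte genes went the other way: Abcc8, the regulatory subunit of the neuronal and pancreatic ATP-sensitive potassium channel, was higher in hypothalamus (log2 ratio 4.35 ± 0.50, edgeR adjusted p = 0.000201), as were Rgs4 (3.24 ± 0.14, adjusted p = 9.53e-07) and Higd1a (1.06 ± 0.11, adjusted p = 8.8e-05).

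In the hypothalamus, 8 of the 10 pericyte genes were above 0 on the log2 scale in oxaliplatin mice, and Kcnj8 and Abcc9 passed the test. The edgeR quasi-likelihood test called 28 of 18941 genes in this tissue, 0.148%, and every one of them was higher. The median log2 change of the 10 was 0.57, against 0.01 over all genes tested, where 52% were above 0. In 6 of the 10 every oxaliplatin library was above every vehicle library, which held for 5.58% of all genes, where 9.93% had groups apart in either direction, and in none was every oxaliplatin library below.

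**Figure D2:**
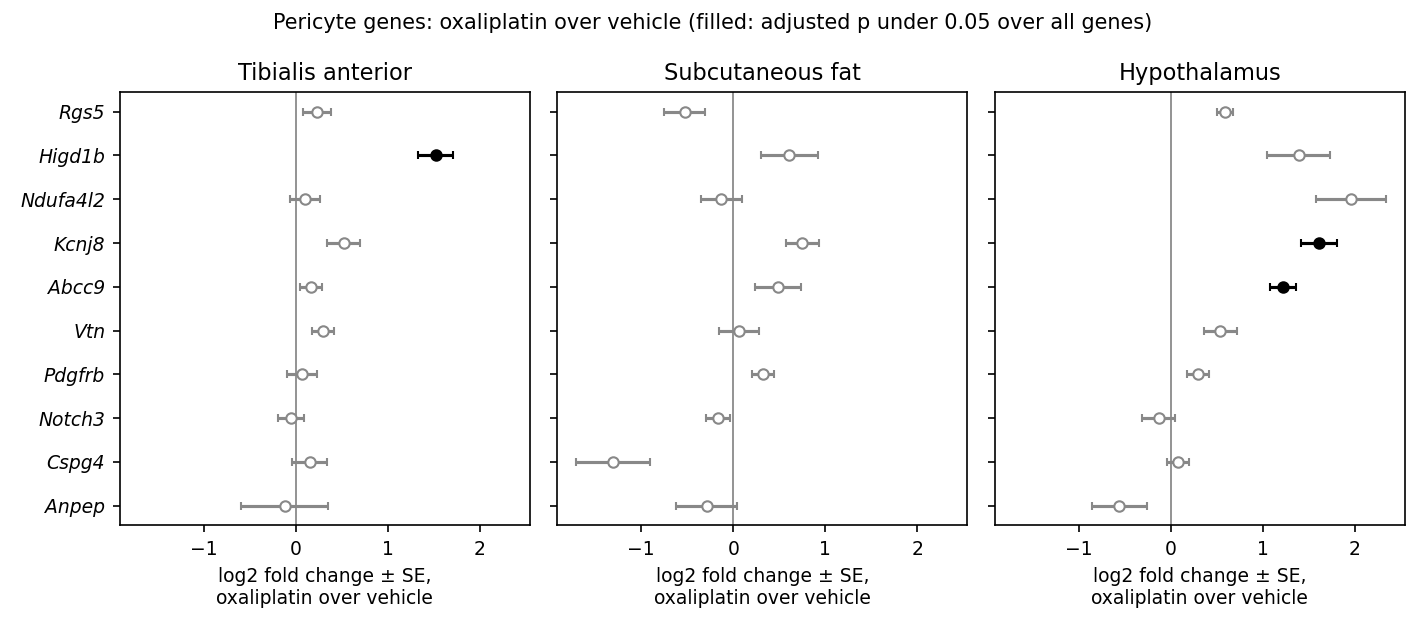
Log2 fold change (oxaliplatin over vehicle) of the 10 pericyte genes with its standard error in muscle, fat and hypothalamus; filled points have an adjusted p under 0.05 over all genes of that tissue. The filled points are Higd1b in muscle (1.52) and Kcnj8 (1.61) and Abcc9 (1.22) in hypothalamus.

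Kcnj8 had 12.4, 10.4, 9.84 and 7.16 CPM in the 4 oxaliplatin hypothalami, against 3.22, 3.38 and 3.21 CPM in the 3 vehicle hypothalami. The vehicle libraries lay close together and the lowest oxaliplatin library was well above them. The log2 change was 1.61 ± 0.20 (SE, edgeR adjusted p = 0.0193). Abcc9 had 26.9, 31.4, 27.4 and 21.4 CPM in oxaliplatin hypothalami, against 11.6, 10.5 and 12.4 CPM in vehicle hypothalami. The groups were again apart, with oxaliplatin library 5 the lowest of its group for both subunits, and the log2 change was 1.22 ± 0.14 (SE, adjusted p = 0.0136). Kcnj8 CPM amounted to 33.1% to 46.1% of Abcc9 CPM in oxaliplatin libraries and 25.9% to 32.2% in vehicle libraries. Without any 1 vehicle library, or without oxaliplatin library 3 or 4, neither gene passed, with adjusted p-values up to 0.175 for Kcnj8 and 0.173 for Abcc9, while the log2 changes stayed at 1.48 to 1.72 and 1.13 to 1.30.

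The related channel subunits were measured in the same libraries. Kcnj11, the pore subunit used in neurons and in striated muscle, averaged 28.7 ± 1.68 CPM in oxaliplatin hypothalamus (n = 4) and 28.4 ± 2.41 CPM in vehicle hypothalamus (n = 3), a log2 change of 0.02 ± 0.10. Abcc8 averaged 12.4 ± 1.29 CPM in oxaliplatin and 16.3 ± 2.23 CPM in vehicle hypothalamus. Its log2 change was -0.40 ± 0.13, which did not pass (edgeR adjusted p = 0.388), although all its oxaliplatin libraries were below all vehicle libraries.

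Ndufa4l2 (chr10:127514967-127517154), a mitochondrial protein known as a hypoxia-induced gene, had the largest log2 change of the 10, 1.96 ± 0.38, and did not pass (edgeR adjusted p = 0.153). It had 9.79, 9.5, 12.8 and 3.87 CPM in oxaliplatin hypothalami, against 2.39, 2.74 and 1.81 CPM in vehicle hypothalami. The groups were apart, but oxaliplatin library 5 lay nearer to vehicle than to the other 3 oxaliplatin libraries. Without that library the log2 change was 2.20 ± 0.21 and the adjusted p 0.00168. Ndufa4, its widely expressed relative in the respiratory chain, changed by -0.08 ± 0.11.

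Higd1b (chr11:102835849-102838040), a small mitochondrial protein of the hypoxia-induced domain family, had 1.49, 1.52, 2.65 and 1.48 CPM in oxaliplatin hypothalami, against 0.479, 0.684 and 0.886 CPM in vehicle hypothalami. Its groups were apart at these low levels, with a log2 change of 1.39 ± 0.34 that did not pass (edgeR adjusted p = 0.274). Higd1a, the broadly expressed relative, gave 0.15 ± 0.10.

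Rgs5 had 105, 123, 109 and 125 CPM in oxaliplatin hypothalami, against 75.3, 74.4 and 79.8 CPM in vehicle hypothalami. The groups were apart and the log2 change of 0.59 ± 0.09 ended just short of the threshold (edgeR adjusted p = 0.0518). It passed in 3 of the 8 other analysis settings and without oxaliplatin library 2 or 5. Rgs4, a related G protein regulator that neurons express, gave 0.08 ± 0.09. Vtn had 98.1, 147, 105 and 93.5 CPM in oxaliplatin hypothalami, against 59.3, 86.1 and 83.2 CPM in vehicle hypothalami. Its groups were apart by a narrow margin, and the log2 change of 0.54 ± 0.18 did not pass (edgeR adjusted p = 0.407).

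The remaining genes had overlapping groups in hypothalamus. Pdgfrb averaged 40.6 ± 5.19 CPM in oxaliplatin hypothalamus (n = 4) and 33.1 ± 3.19 CPM in vehicle hypothalamus (n = 3) a log2 change of 0.30 ± 0.12 (edgeR adjusted p = 0.459). Cspg4 gave 0.08 ± 0.12. Notch3 gave -0.13 ± 0.18, with oxaliplatin library 2, the library low in oligodendrocyte markers, at 33.8 CPM while the other 3 were at 54.7 to 62.3 CPM and vehicle libraries at 56.0 to 57.2 CPM. Anpep averaged 4.93 ± 1.94 CPM in oxaliplatin hypothalamus and 7.27 ± 1.98 CPM in vehicle hypothalamus, a log2 change of -0.56 ± 0.30 (adjusted p = 0.559). Pdgfb, the ligand of Pdgfrb, and Pdgfra, the related receptor of oligodendrocyte precursors and fibroblasts, gave 0.24 ± 0.18 and 0.07 ± 0.10. Jag1, a Notch ligand, gave 0.14 ± 0.12.

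**Figure D3:**
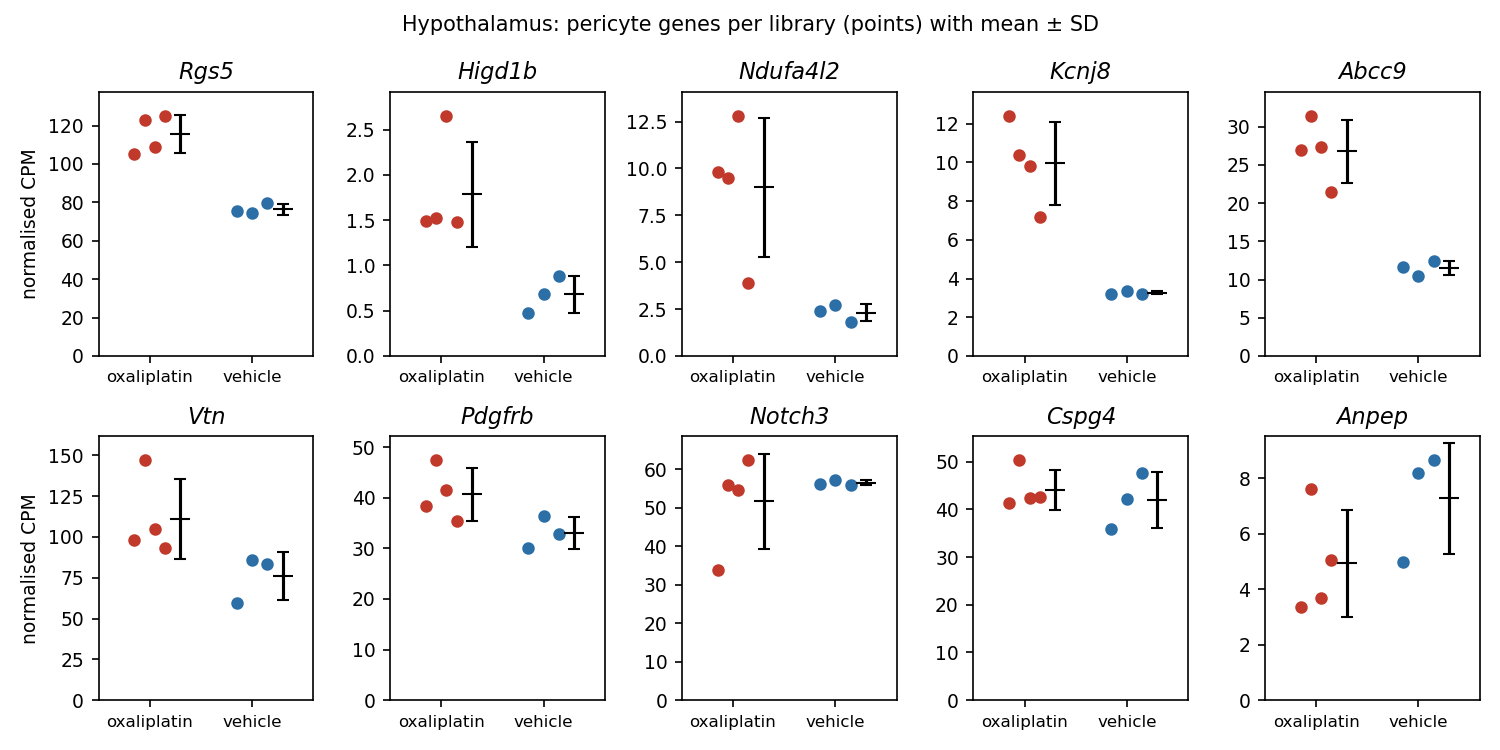
Normalised CPM of the 10 pericyte genes in each hypothalamus library (points; 4 oxaliplatin, 3 vehicle), with the mean and SD of each group beside the points. Rgs5, Higd1b, Ndufa4l2, Kcnj8, Abcc9 and Vtn have every oxaliplatin point above every vehicle point, and Notch3, Cspg4, Pdgfrb and Anpep overlap.

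Endothelial markers moved with the pericyte genes in the hypothalamus, and their part in the result was not tested. All 14 were above 0, with a median log2 change of 1.09, and 5 passed (Eng, Flt1, Vwf, Pecam1 and Robo4). They summed to 852, 940, 809 and 546 CPM in oxaliplatin libraries 2 to 5, against 281, 290 and 298 CPM in vehicle libraries. Library 5 was lowest of the oxaliplatin group here too, as it was for Kcnj8, Abcc9, Ndufa4l2, Higd1b, Vtn and Pdgfrb. It was the highest of that group for Rgs5, at 125 CPM, and Notch3, at 62.3 CPM. Library 2 was lowest for Rgs5, Notch3, Cspg4 and Anpep, and for the sum of the 10 pericyte genes, 370 CPM against 397 CPM in library 5. Erythroid markers (4 genes) summed to 71, 53.7, 181 and 927 CPM in oxaliplatin libraries 2 to 5, against 645, 502 and 457 CPM in vehicle libraries 1, 2 and 4. Oxaliplatin libraries 2 to 4 were thus below all vehicle libraries and library 5 above them, and the part of erythroid RNA in the result was not tested. The 10 pericyte genes summed to 370 to 484 CPM in oxaliplatin libraries and 279 to 326 CPM in vehicle libraries. Their sum was thus 0.434 to 0.727 times the endothelial sum in oxaliplatin hypothalamus and 0.993 to 1.11 times in vehicle hypothalamus, without overlap, also when each of the 10 genes was left out of the sum in turn. Smooth muscle markers overlapped between the groups, at 62.3 to 146 CPM in oxaliplatin and 69.6 to 131 CPM in vehicle, and so did fibroblast markers, at 157 to 227 and 161 to 226 CPM. Pituitary markers summed to 4.03 to 14.8 CPM in oxaliplatin and 20.9 to 39.3 CPM in vehicle hypothalamus, and their part in the result was not tested either.

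**Figure D4:**
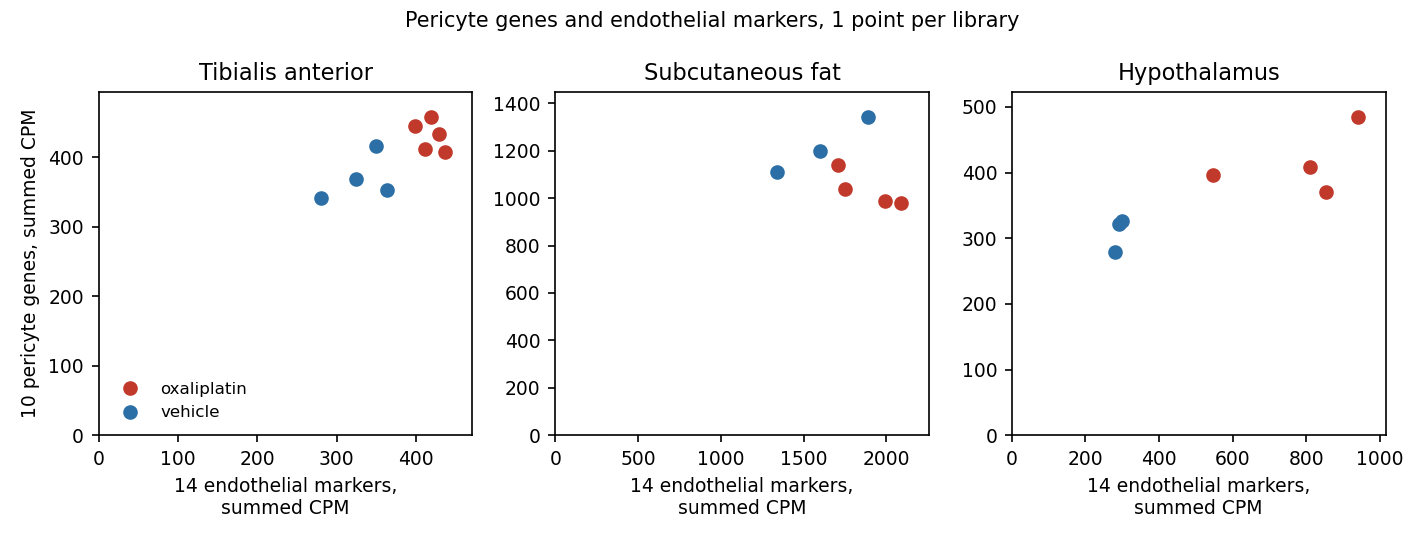
Summed normalised CPM of the 10 pericyte genes (vertical) against that of 14 endothelial markers (horizontal), 1 point per library, oxaliplatin and vehicle, by tissue. In hypothalamus the oxaliplatin libraries lie at 546 to 940 CPM of endothelial markers and the vehicle libraries at 281 to 298 CPM, and in fat the groups overlap on both axes.

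Genes of the pathways that act on pericytes were examined as lists. Of 15 genes of PDGF-B, TGF-beta and angiopoietin signalling, 2 were higher in oxaliplatin hypothalamus and none lower, and the list's median log2 change was 0.17. Eng, a TGF-beta co-receptor of endothelium, averaged 58.3 ± 8.09 CPM in oxaliplatin and 24.6 ± 1.05 CPM in vehicle hypothalamus (1.25 ± 0.12, edgeR adjusted p = 0.00738), and Acvrl1, the receptor it serves, gave 1.04 ± 0.15 (adjusted p = 0.0331). Of 15 basement membrane genes, 1 was higher: Col4a1, a chain of type IV collagen, averaged 87.0 ± 19.0 CPM in oxaliplatin and 34.2 ± 0.998 CPM in vehicle hypothalamus (1.35 ± 0.17, adjusted p = 0.0215), and the list's median was 0.32. With 1 of the 7 libraries left out in turn, Eng passed in 3 fits and Acvrl1 and Col4a1 in 2 each, and Acvrl1 did not pass in limma-voom. None of 13 Notch genes passed in edgeR, with 3 at an unadjusted p under 0.05 and 2 called by DESeq2, Notch4 and Dll4, which gave 1.44 ± 0.26 and 1.44 ± 0.30 in edgeR. Among 22 other mural genes, 5 had an unadjusted p under 0.05 and none passed in edgeR or DESeq2. Of 12 contractile smooth muscle genes, 1 had an unadjusted p under 0.05, Smtn, which DESeq2 called and edgeR did not. Over all 18941 genes tested in hypothalamus, 1932 had an unadjusted edgeR p under 0.05 and DESeq2 called 262.

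In muscle, Higd1b was the single pericyte gene to pass. The edgeR test called 24 of 14737 genes, 0.163%, of which 0.115% were higher and 0.0475% lower. The median log2 change of the 10 was 0.16, against -0.01 over all genes tested, and 8 of 10 were above 0, against 47.8% of all genes. Only for Higd1b did the groups not overlap, which held for 3.89% of all genes, 2.18% with oxaliplatin higher.

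Higd1b had 5.48, 4.25, 5.55, 6.69 and 4.75 CPM in oxaliplatin muscle libraries 1 to 5, against 2.22, 2.0, 1.57 and 1.70 CPM in vehicle muscle libraries. Library 5, whose treatment entry reads vehicle, lay among the oxaliplatin libraries. The log2 change was 1.52 ± 0.19 (SE, edgeR adjusted p = 0.0127). It was 1.56 ± 0.21 without library 5 (adjusted p = 0.0223) and 1.16 ± 0.31 with that library set to vehicle, when the call was lost (adjusted p = 0.791). Leaving out oxaliplatin library 1 or vehicle library 3 also lost the call, with adjusted p-values of 0.0507 and 0.0731. Its counts in muscle were 45 to 212 reads per library.

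None of the other 9 genes passed in muscle. Of them, 2, Kcnj8 and Vtn, had an unadjusted edgeR p under 0.05, as had 1414 of the 14737 genes tested. Kcnj8 had 38.9, 39.8, 40.4, 37.2 and 31.2 CPM in oxaliplatin muscle, against 36.1, 28.9, 20.0 and 19.5 CPM in vehicle muscle. Vehicle library 1 lay inside the oxaliplatin range and vehicle libraries 3 and 4 well below it, and the log2 change of 0.52 ± 0.18 did not pass (edgeR adjusted p = 0.327). Vehicle libraries 3 and 4 were also those with the highest fibroblast sums, 1280 and 1900 CPM, against 552 and 665 CPM in vehicle libraries 1 and 2 and 409 to 857 CPM in oxaliplatin muscle. Mitochondrial genes made up 12.24% and 13.46% of counts in vehicle libraries 3 and 4, against 20.92% and 23.22% in vehicle libraries 1 and 2 and 13.34% to 19.16% in oxaliplatin muscle. The part of either in the result was not tested. Rgs5 followed the same order in vehicle, at 170, 135, 113 and 103 CPM, against 133 to 165 CPM in oxaliplatin muscle, with a log2 change of 0.23 ± 0.15. Abcc9 averaged 125 ± 5.18 CPM in oxaliplatin muscle (n = 5) and 111 ± 14.6 CPM in vehicle muscle (n = 4), a log2 change of 0.17 ± 0.12. The log2 change of Vtn was 0.30 ± 0.12 and those of Ndufa4l2, Pdgfrb, Cspg4, Notch3 and Anpep lay between -0.12 and 0.15.

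Vessel genes beside the list also moved in muscle. Endothelial markers summed to 398 to 436 CPM in oxaliplatin muscle and 280 to 363 CPM in vehicle muscle, without overlap, and 1 of 14 passed, Pecam1 at 0.68 ± 0.11 (edgeR adjusted p = 0.0443). The pericyte sum was 0.936 to 1.12 times the endothelial sum in oxaliplatin muscle and 0.970 to 1.22 times in vehicle muscle, with overlap. Of 14 genes of PDGF-B, TGF-beta and angiopoietin signalling, 1 was higher: Angpt2, an endothelial antagonist of TIE2 that loosens pericyte contact, averaged 8.09 ± 1.70 CPM in oxaliplatin and 3.28 ± 0.671 CPM in vehicle muscle (1.30 ± 0.20, adjusted p = 0.0278). It passed without 3 of the 9 libraries in turn. Of 20 other mural genes, 1 was higher, Rgs4, at 26.7 ± 2.02 CPM in oxaliplatin and 12 ± 3.62 CPM in vehicle muscle (1.15 ± 0.17, adjusted p = 0.0278), which passed without 2 of the 9 libraries in turn. The other relatives and partners, Kcnj11, Abcc8, Higd1a, Ndufa4, Pdgfra, Pdgfb and Jag1, gave -0.19 to 0.32 and did not pass. None of 11 Notch genes, 13 contractile genes and 15 basement membrane genes passed in edgeR. At an unadjusted p under 0.05 these lists had 3, 1 and 0 genes, and DESeq2 called 1, 0 and 0. The 1 was Hey1, a Notch target (1.04 ± 0.21, edgeR adjusted p = 0.0812). Over all 14737 genes tested in muscle, 1414 had an unadjusted edgeR p under 0.05 and DESeq2 called 254.

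In fat, no pericyte gene passed in the edgeR test, which called 0 of 19870 genes (0%), although 5178 had an unadjusted p under 0.05 and DESeq2 called 2417. Among the 10 pericyte genes, 4 had an unadjusted p under 0.05 (Cspg4, Kcnj8, Pdgfrb and Rgs5), DESeq2 called 2 (Cspg4 and Kcnj8) and limma-voom called 0. Their median log2 change was -0.03, against 0.03 over all genes tested, and 5 of 10 were above 0, against 52.4% of all genes. The groups did not overlap for 3 of the 10, with Kcnj8 and Pdgfrb higher and Cspg4 lower in oxaliplatin fat, which held for 21.5% of all genes, 10.3% with oxaliplatin higher and 11.2% with it lower.

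Cspg4 had 61.5, 63.4, 96.8 and 185 CPM in oxaliplatin fat libraries 2 to 5, against 312, 230 and 212 CPM in vehicle fat. The fibroblast-rich oxaliplatin library 5 was the nearest to vehicle. The log2 change was -1.31 ± 0.40 (edgeR adjusted p = 0.129), and without that library it was -1.77 ± 0.23 (adjusted p = 0.00288). Kcnj8 had 46.4, 52.8, 44.6 and 35.3 CPM in oxaliplatin fat, against 31.6, 26.2 and 22.1 CPM in vehicle fat. Library 5 was again the nearest to vehicle, and the log2 change was 0.75 ± 0.18 with it (adjusted p = 0.114) and 0.84 ± 0.16 without it (adjusted p = 0.00874). Without library 5, 4969 genes passed in fat.

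The partner subunit and the remaining genes had wider spreads. Abcc9 had 219, 202, 209 and 149 CPM in oxaliplatin fat, against 117, 104 and 193 CPM in vehicle fat. The vehicle value of 193 CPM belonged to library 4, which carried the muscle fibre RNA and also had 32.1 CPM of Kcnj11 where the other vehicle fat libraries had 0.534 and 0.231 CPM. The log2 change of Abcc9 was 0.49 ± 0.25 with library 4 and 0.83 ± 0.20 without it, and it passed in neither fit (edgeR adjusted p = 0.243 and 0.246). Kcnj8 amounted to 21.2% to 26.1% of Abcc9 CPM in oxaliplatin fat, and to 27.0%, 25.2% and, in library 4, 11.5% in vehicle fat. Rgs5 had 215, 196, 249 and 291 CPM in oxaliplatin fat, against 437, 337 and 257 CPM in vehicle fat, with an overlap at vehicle library 4 and a log2 change of -0.53 ± 0.22 (adjusted p = 0.186). Pdgfrb averaged 176 ± 15.1 CPM in oxaliplatin fat (n = 4) and 141 ± 8.37 CPM in vehicle fat (n = 3), a log2 change of 0.32 ± 0.12 (adjusted p = 0.159). The log2 change of Higd1b was 0.61 ± 0.31, and those of Notch3, Anpep, Ndufa4l2 and Vtn were -0.17 ± 0.13, -0.29 ± 0.33, -0.13 ± 0.22 and 0.06 ± 0.22. Among the relatives, Higd1a gave -0.70 ± 0.21, Ndufa4 -0.52 ± 0.15 and Rgs4 0.54 ± 0.20, none of which passed.

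The companion lists in fat had no called gene in edgeR or limma-voom. Of 15 basement membrane genes, 6 had an unadjusted p under 0.05 and DESeq2 called 4, and their median log2 change was -0.64. The contractile list of 13 had 4 and 2 by the same counts and a median of -0.37, with Synpo2 at 61.5 ± 30.8 CPM in oxaliplatin and 419 ± 172 CPM in vehicle fat (-2.77 ± 0.43, edgeR adjusted p = 0.0808) and Acta2 at -1.39 ± 0.29. The 15 signalling genes had 6 and 4, the 13 Notch genes 5 and 3, and the 20 other mural genes 4 and 3, with medians of -0.20, -0.05 and -0.29. Smooth muscle markers summed to 223 to 326 CPM in oxaliplatin fat and 576 to 1010 CPM in vehicle fat, without overlap, and their part in the Cspg4 and Rgs5 values was not tested. Endothelial markers summed to 1710 to 2090 CPM in oxaliplatin fat and 1340 to 1890 CPM in vehicle fat, and the pericyte sum was 0.468 to 0.667 times the endothelial sum in oxaliplatin fat and 0.709 to 0.828 times in vehicle fat. Those ranges do not overlap, but they do without Cspg4, at 0.439 to 0.556 times in oxaliplatin fat and 0.544 to 0.673 times in vehicle fat, or without Rgs5, at 0.366 to 0.494 and 0.478 to 0.639 times. Erythroid markers summed to 148, 231, 401 and 1080 CPM in oxaliplatin fat libraries 2 to 5 and 482 to 666 CPM in vehicle fat, and their part in the fat values was not tested.

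The oxaliplatin effect was compared between tissues in 1 fit per pair of tissues. The effect on Abcc9 was smaller in muscle than in hypothalamus, with a log2 difference of -1.01 ± 0.17 (SE, edgeR adjusted p = 0.027), and it was the single pericyte gene to differ; 0.0689% of 17415 genes did, 0.0172% with a larger effect in muscle and 0.0517% with a smaller. Ndufa4l2 and Kcnj8 gave muscle minus hypothalamus differences of -1.82 ± 0.38 and -1.05 ± 0.28 and did not pass (adjusted p = 0.0795 and 0.176), and Higd1b gave 0.17 ± 0.39. The Abcc9 difference was no longer called without any 1 of 9 of the 16 libraries, among them each vehicle hypothalamus library, with adjusted p-values up to 0.166 and log2 differences of -1.10 to -0.92. With muscle library 5 set to vehicle its adjusted p was 0.0639. The kit also differed between muscle and hypothalamus, so kit and tissue cannot be told apart in these differences. Striated muscle fibres express Abcc9 as well, and their part in the Abcc9 difference was not tested.

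Between fat and hypothalamus none of the 10 passed, where 0.311% of 20892 genes did (0.0862% higher and 0.225% lower). Of the 10, 5 had an unadjusted edgeR p under 0.05, as had 4123 of all genes tested. DESeq2 called 2 of the 10, Ndufa4l2 and Rgs5, and 1217 of all genes. Ndufa4l2 gave a fat minus hypothalamus difference of -2.08 ± 0.46 (edgeR adjusted p = 0.0619), Rgs5 gave -1.12 ± 0.25 (adjusted p = 0.0636) and Cspg4 gave -1.37 ± 0.46 (adjusted p = 0.142). Between muscle and fat none passed, where 0.239% of 18862 genes did (0.18% higher and 0.0583% lower). Of the 10, 3 had an unadjusted edgeR p under 0.05, as had 3208 of all genes tested. DESeq2 called Cspg4 of the 10, and 802 of all genes. Cspg4 had a muscle minus fat difference of 1.44 ± 0.43 in edgeR (adjusted p = 0.129). Each pair of these comparisons shares libraries of a tissue, so they are not independent of each other.

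The genes whose libraries varied most like the mean of the 10, after the group means were removed, were ranked among genes at a mean of at least 5 CPM. In hypothalamus (7 libraries, 11634 genes ranked) they were Cyp2j9, Slc2a12, Cnnm3, Frmpd1 and Eef1d, at Pearson correlations of 0.985 to 0.993. In fat (7 libraries, 11317 genes) they were Fam107b, Prrg1, Nrp2, Ifnar1 and BC031181, at 0.984 or above. In muscle (9 libraries, 7984 genes) they were Ednra, the endothelin receptor of mural cells, Ankmy2, Lama4, a laminin chain of vessel basement membrane, Snx27 and Enpp5, at 0.894 to 0.950. With so few libraries and so many genes ranked, values this high are a description only.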

How the data were processed

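RNA-seq was done on muscle, subcutaneous fat and hypothalamus of mice given oxaliplatin or vehicle. Per the labels' protocols, tissue was kept in RNAlater and RNA was purified with a bead kit. Values in the authors' deposited tables are expected counts, 1 for each gene and library; 41.1% to 48.7% of values were not whole, and the lowest sum over the libraries of a table was 10. The submitters' processing notes name STAR 2.5.1a, Partek and DESeq2. No label or header names a build; gene starts equalled those of GENCODE M21 on GRCm38 in 99.4% to 99.5% of genes, and that annotation gave the exon lengths.

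Expected counts were rounded to whole numbers and tested, in place of the raw counts that had been planned for, with the quasi-likelihood test of edgeR 4.0.16 in R 4.3.3 (TMM scaling; genes with a count of about 10 in enough libraries, and 15 in total). Each tissue had its own fit, and pairs of tissues had a joint fit for differences in effect. Standard errors are the log2 fold change over the square root of F. P-values were adjusted by Benjamini-Hochberg over all genes tested, and an adjusted p under 0.05 counted as called. CPM are TMM-normalised within each fit, so hypothalamus and fat values of the joint vehicle fit differ slightly from those of the single tissues. P-values set the difference between groups against the spread between libraries, which the fits treat as independent. Alternatives were DESeq2 1.42.0, limma-voom (limma 3.58.1), other scaling and filters, 1 fit over all tissues, a replicate block and leaving out each library. The procedure was tested on simulated data.

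The 10 genes and the companion and marker lists were chosen with earlier results of these data known. Named genes were the 10, their relatives or partners (Higd1a, Ndufa4, Rgs4, Kcnj11, Abcc8, Pdgfra, Pdgfb and Jag1), the called genes of each companion list and otherwise up to 2 with the smallest p; DESeq2 calls and endothelial markers were named beside them. The marker lists for the other cell types were summed per library; not all of them are given in the text.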

Additional observations from a re-analysis of the deposited data

Results flagged for a closer look

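Among 40 sets of 4 or 5 libraries (a gene in an oxaliplatin group, or in vehicle muscle), 2 had a library far from the rest; chance alone gives about 1 in 20. Cspg4 was 50.3 CPM in oxaliplatin hypothalamus library 3, the top of a group that began at 41.3 CPM, with a gap to the nearest library of 0.867 of the range. Higd1b was 2.65 CPM in oxaliplatin hypothalamus library 4, in a group that began at 1.48 CPM, with a gap of 0.966 of the range.

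The oxaliplatin effect on Abcc9 was called as differing between tissues, with a muscle minus hypothalamus log2 difference of -1.01 by the edgeR interaction test. The call stayed in 7 of the 16 fits that left out 1 library. It was lost with the replicate block and with muscle library 5 set to vehicle.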

How the results depend on the processing

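The 10 differences between vehicle hypothalamus and vehicle fat were called under every setting and without any 1 library (10 to 10 genes). None of the 10 genes turned direction where it was called in any comparison. Uncalled values changed sign under some setting for Anpep, Ndufa4l2, Notch3 and Pdgfrb in muscle. They also did so for Ndufa4l2 and Vtn in fat, and for Cspg4 and Notch3 in hypothalamus. Anpep in muscle gave -0.35 to 0.58 with 1 library left out. Among differences in effect, signs changed for Cspg4, Higd1b and Notch3 (muscle minus hypothalamus), Notch3 and Pdgfrb (fat minus hypothalamus) and Anpep (muscle minus fat). The oxaliplatin calls depended on the setting, and the cause was not tested. DESeq2 called 2 of the 10 in fat and 5 in hypothalamus. For differences in effect it called 2 for muscle minus hypothalamus, 2 for fat minus hypothalamus and 1 for muscle minus fat. Over all genes it called 262 in hypothalamus, 2417 in fat and 254 in muscle. For the differences in effect its counts over all genes were 198, 1217 and 802, in the same order. Limma-voom called 16 genes in hypothalamus, and leaving out the low-count filter called 42 genes in muscle. A fit over all 3 tissues called 55 genes in hypothalamus, 2909 in fat and 91 in muscle, with 2 of the 10 in fat, Cspg4 and Kcnj8. With muscle library 5 set to vehicle, 0 of the 10 were called in muscle and 0 for muscle minus hypothalamus, and 0 of all genes in muscle.

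Leaving out 1 library at a time gave 0 to 1 of the 10 in muscle, 0 to 2 in fat and 0 to 4 in hypothalamus (4 without oxaliplatin library 5, 3 without oxaliplatin library 2). For differences in effect the ranges were 0 to 2 for muscle minus hypothalamus, 0 to 3 for fat minus hypothalamus and 0 to 1 for muscle minus fat. Over all genes they were 2 to 17 in muscle, 0 to 4969 in fat and 0 to 655 in hypothalamus, with the highest values in fat and hypothalamus without oxaliplatin library 5. With the number in the titles as a replicate block, 0 of the 10 were called in muscle (3 of all genes). In hypothalamus 0 of the 10 were called with the block (edgeR adjusted p = 0.0574 for both Kcnj8 and Abcc9). Only numbers 2 and 4 occur in both arms of hypothalamus, so that fit compared the arms through those libraries alone. Over all genes the block called 37 in hypothalamus, against 28 without it. For muscle minus hypothalamus 0 of the 10 were called with the block (edgeR adjusted p = 0.0829 for Abcc9). Same-numbered libraries of the 2 arms did not deviate together. The correlations of their deviations were -0.177 to 0.174 in muscle, -0.28 and -0.177 in fat and -0.011 and 0.032 in hypothalamus. Between hypothalamus and fat, same-numbered libraries gave 0.022 to 0.035 in vehicle and 0.033 to 0.118 in oxaliplatin. Differently numbered ones gave -0.025 to -0.007 and -0.083 to 0.06. Between muscle and either other tissue, same-numbered libraries gave -0.155 to 0.029. Whether same-numbered libraries of different tissues share an animal was not tested, and the fits treat them as independent. Higd1b rested on 14 to 69 reads per hypothalamus library, which limits its precision.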
